A study of Homo sapiens with 4 samples.

Results

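Aminoacyl-tRNA synthetases, the enzymes that attach amino acids to their tRNAs, were followed together with the scaffold proteins of the multisynthetase complex in SK-MEL-28 cells, an established human melanoma line. Members were taken by a rule on gene symbols (a single letter for the amino acid followed by ARS, or ARS2 for the mitochondrial enzyme, plus EPRS, FARSA, FARSB, FARS2 and the scaffold genes AIMP1, AIMP2 and EEF1E1). This gave 40 of the 25268 symbols in the table, of which 20 encode cytosolic enzymes, 17 mitochondrial enzymes and 3 scaffold proteins. RNA-Seq was performed on 4 libraries, 1 per condition. Cells stably transduced by lentivirus with the empty pTRIPZ vector (vector cells) or with a Tet-inducible MYC gene (MYC-inducible cells) were sequenced without doxycycline (Dox) or after 54 h with Dox. Transduced cells had been selected with geneticin (G418), and whether they were a pool or a clone is not stated in the sources used here. The vector cells show what Dox does without the inducible MYC gene, and the MYC-inducible cells address what Dox does when that gene is present. With a single library in each group, differences could not be tested against replicates and p-values are absent.

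Synthetases join amino acids to the tRNAs that read their codons, most of them for a single amino acid, and the charged tRNAs then enter the ribosome. The cytosolic set serves cytosolic ribosomes, whereas the mitochondrial set is encoded in the nucleus, imported, and serves the ribosomes that translate the few proteins of mitochondrial DNA. GARS and KARS each supply both compartments from a single gene, and mitochondria charge glutamine tRNA by another route, so no GARS2, KARS2 or QARS2 is present. Several cytosolic enzymes sit in the multisynthetase complex, held by AIMP1, AIMP2 and EEF1E1, and the others are free. MYC is a transcription factor that binds the E-box and is known for raising genes of ribosome production and protein synthesis, and ATF4 is the factor through which many cytosolic synthetase genes respond to amino acid shortage.

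Promoter sequences are shown for the 5 members that hold 1 of 2 motifs, the E-box of MYC (CACGTG, which reads the same on both strands) and an amino acid response motif of ATF4 (TGATGNAAT, either strand). RefSeq promoters of GRCh38.p14, 250 bases before to 50 after the annotated start, were matched for 33 of the 40 members. The E-box was in 4 of these (12.1%) and in 7.26% of all 35116 promoters of the same length, and the amino acid response motif was in 1 (3.03%) and in 0.991% of all promoters. VARS, YARS and LARS were among the members without a matched promoter. Capitals mark the motif, each stretch is printed 5′ to 3′ on the strand of the gene, and the TARS motif lies on the opposite strand.
MARS2, chr2:197705249-197705368, plus strand, motif beginning at base -11 from the start: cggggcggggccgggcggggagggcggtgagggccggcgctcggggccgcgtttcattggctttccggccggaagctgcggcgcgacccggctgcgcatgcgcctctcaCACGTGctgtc
EARS2, chr16:23557351-23557470, minus strand, motif beginning at base -15: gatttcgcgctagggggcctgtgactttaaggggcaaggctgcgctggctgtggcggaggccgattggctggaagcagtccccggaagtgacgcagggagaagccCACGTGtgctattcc
IARS, chr9:92293698-92293903, minus strand, motif beginning at base -186: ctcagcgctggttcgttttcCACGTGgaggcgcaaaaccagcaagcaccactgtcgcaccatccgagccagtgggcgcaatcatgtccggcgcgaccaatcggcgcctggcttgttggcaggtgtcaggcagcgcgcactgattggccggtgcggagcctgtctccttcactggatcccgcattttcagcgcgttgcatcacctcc
CARS2, chr13:110706513-110706635, minus strand, motif beginning at base -3: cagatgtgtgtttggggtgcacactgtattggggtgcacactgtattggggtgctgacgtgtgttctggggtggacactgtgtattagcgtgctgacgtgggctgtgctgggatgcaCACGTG
TARS, chr5:33440845-33440974, plus strand, motif beginning at base 2 of the transcript: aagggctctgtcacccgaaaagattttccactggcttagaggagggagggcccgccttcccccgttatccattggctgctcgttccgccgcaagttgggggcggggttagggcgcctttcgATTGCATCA
A match is a description of these letters and shows no binding. The 4 genes with an E-box differed widely among themselves. In the MYC-inducible cells the log2 change with Dox was 0.93 for MARS2, 0.50 for IARS, 0.40 for EARS2 and -0.05 for CARS2, and TARS had 0.31. YARS2, KARS, AIMP2 and FARSB, whose matched promoters held no E-box, had 0.85, 0.65, 0.64 and 0.62.

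Levels are given as FPKM (fragments per kilobase of transcript, scaled to the mapped fragments of the library), in the order vector cells without Dox, vector cells with Dox, MYC-inducible cells without Dox and MYC-inducible cells with Dox. A change is the difference of log2(FPKM + 0.1) with Dox minus without Dox, and background shares are over the 11147 genes whose 4 values average 1 FPKM or more, a filter that all 40 members passed. Rose and fell are used for changes of at least 1.5-fold. The approximate depth was 39100000, 35000000, 42000000 and 39300000 fragments. From this depth each member had an approximate counting error of 0.0152 to 0.0953 on the log2 scale in the MYC-inducible cells, which covers counting only and leaves out differences between cultures. Between the untreated populations, which differ in the transduced gene, 8 members were higher and 6 lower beyond the approximate 95% counting interval, and the spread between cultures of 1 population was not measured. The share of all genes beyond such an interval was not calculated, so these counts are not a trait of the members. MYC itself had 58.3, 54.8, 76.5 and 87.1 FPKM, a log2 change of 0.19 in the MYC-inducible cells. This is under 25%, and less than the distance between the untreated populations. The FPKM value of MYC therefore separates the MYC-inducible libraries with and without Dox only a little. The paper reports that Dox raised MYC mRNA, measured by RT-PCR, and E-box reporter activity in the MYC-inducible cells. Whether fragments of the transduced MYC gene are fully counted in the FPKM value was not tested. All 8 melanoma markers on the list were measured, and PMEL, a pigment cell protein, had 6176, 6228, 6178 and 3394 FPKM. In the MYC-inducible cells all 8 were lower with Dox and 5 of them fell, with a median change of -0.72, and the part of this shift in the results below was not tested. Of 8 markers of other cells, PTPRC, CD3E and PECAM1 did not exceed 0.0175 FPKM, KRT14 and DCN did not exceed 0.195 FPKM, and KRT5 was listed at 0 in every library, whereas LUM had 26.0 to 31.5 FPKM and EPCAM 0.658 to 2.71 FPKM, highest in the MYC-inducible cells with Dox. In these bulk libraries a change in every cell and a change in the mix of cells cannot be told apart.

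With Dox in the MYC-inducible cells, the synthetases were higher almost as a block, by a modest amount. Of the 40 members, 37 were higher (92.5%, against 46.8% of all genes), namely 19 of 20 cytosolic enzymes, 15 of 17 mitochondrial enzymes and 3 of 3 scaffold proteins. The median log2 change was 0.35 over all members, 0.38 over the cytosolic enzymes, 0.32 over the mitochondrial enzymes and 0.46 over the scaffold proteins, whereas the median over all genes was -0.03. In the vector cells 29 of 40 were higher (72.5%, against 54.2% of all genes), with a median of 0.05 beside 0.01 over all genes. These were 17 of 20 cytosolic enzymes, 9 of 17 mitochondrial enzymes and 3 of 3 scaffold proteins. The MYC-inducible cells with Dox held the highest of the 4 values for 36 of 40 members, against 40.2% of all genes, and WARS and CARS2 had their lowest value there.

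Few members moved far. In the MYC-inducible cells 7 of 40 members rose (17.5%, against 5.9% of all genes), and these were VARS, KARS, YARS, FARSB, MARS2, YARS2 and AIMP2. FARSB (0.57) and YARS (0.58) were under this threshold once the library sums were made equal. No member fell, where 8.85% of all genes fell. At a threshold of 25%, 24 of 40 were up, against 16.9% of all genes. In the vector cells no member passed 1.5-fold in either direction (0.709% of all genes rose and 0.44% fell) and none was up by 25% (2.36% of all genes). For 14 of 40 members the value in the MYC-inducible library with Dox was more than 25% above the highest of the other 3 libraries (35.0%, against 13.4%). Set against the vector cells with Dox, a comparison that uses the same MYC-inducible library again, 4 members, MARS2, YARS2, AIMP2 and FARSB, were at least 1.5-fold higher, as were 6.5% of all genes.

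**Figure D1:**
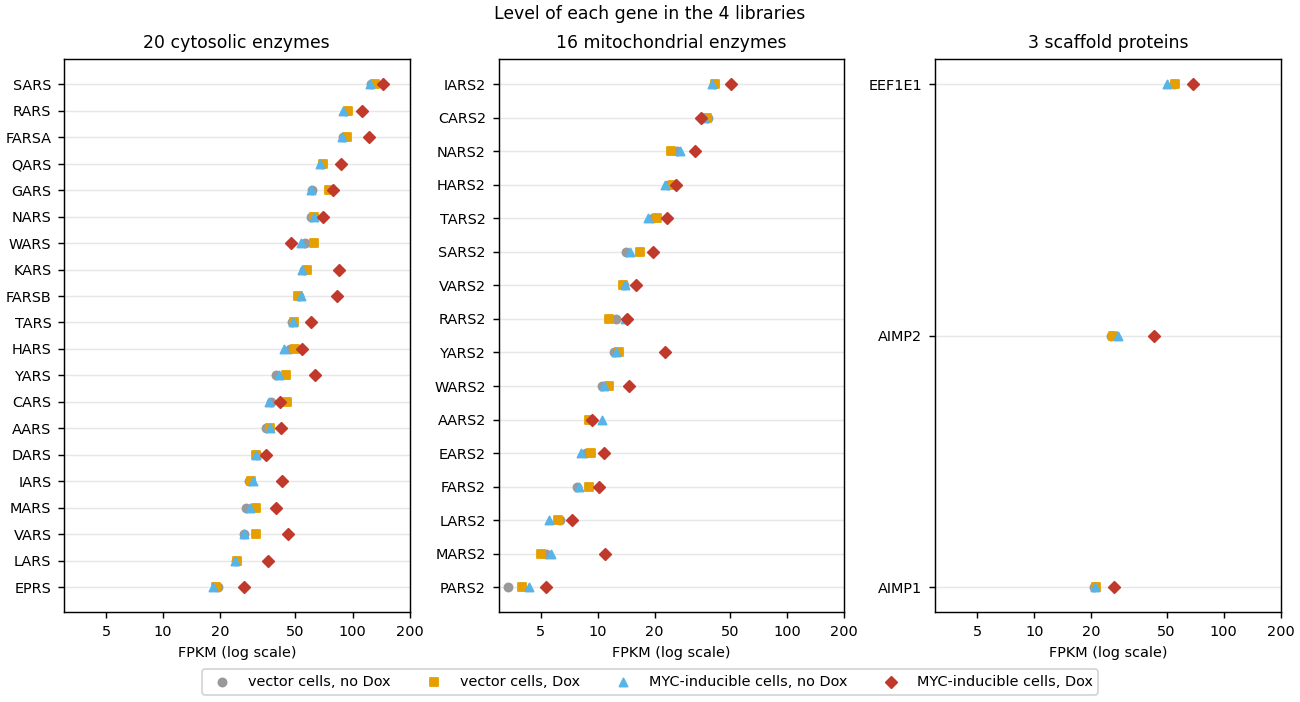
FPKM of each member on a log axis in the 4 libraries, 1 symbol per library, in panels for 20 cytosolic enzymes, 16 mitochondrial enzymes and 3 scaffold proteins. The MYC-inducible library with Dox (diamonds) lies to the right of the other 3 for 35 of the 39 members drawn, and the mitochondrial enzymes sit at lower levels than most cytosolic enzymes.

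Among the cytosolic enzymes, those with the largest excess of the MYC-inducible change over the vector change came from both the complex and the free set. FARSB, the beta subunit of phenylalanine synthetase (chromosome 2 of GRCh37, 223431618 to 223520811), had 52.0, 51.3, 53.8 and 82.5 FPKM, so the other 3 libraries lay close together and the MYC-inducible library with Dox above them. Its log2 change was 0.62 with a counting error of 0.0152 in the MYC-inducible cells and -0.02 in the vector cells. FARSA, which encodes the alpha subunit of the same enzyme, had a smaller change of 0.47. KARS, lysine synthetase (chromosome 16, 75661372 to 75682541), had 55.2, 57.3, 54.4 and 85.2 FPKM, a change of 0.65 against 0.05 in the vector cells. The other 3 libraries were close together for KARS as well.

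EPRS, a fused enzyme for glutamate and proline, had 19.5, 19.0, 18.4 and 26.6 FPKM, a change of 0.53. LARS, which charges leucine, had 24.2, 24.6, 24.1 and 35.7 FPKM, and IARS, which charges isoleucine, had 28.3, 29.2, 29.9 and 42.2 FPKM. The changes of LARS and IARS were 0.57 and 0.50, and in all 3 genes the MYC-inducible library with Dox stood above a narrow range of the others. VARS, valine synthetase, had 26.6, 30.9, 26.7 and 45.4 FPKM. Its change of 0.77 was the highest among the cytosolic enzymes in the MYC-inducible cells, but VARS was also higher with Dox in the vector cells, by 0.21. The VARS values are 7 repeated rows of the symbol added together, and the change of each row was not tested. YARS, tyrosine synthetase, named here after its values were seen because it rose, had 39.5, 44.8, 40.8 and 63.3 FPKM with changes of 0.63 and 0.18.

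At the other end, WARS, the tryptophan synthetase known to be induced by interferon, was the single cytosolic enzyme that was lower with Dox in the MYC-inducible cells. It had 56.2, 62.6, 53.7 and 47.5 FPKM, so its highest value was in the vector cells with Dox and its lowest in the MYC-inducible cells with Dox. The changes were -0.18 and 0.15, each outside its 95% counting interval around 0. CARS, cysteine synthetase, had 37.02, 45.1, 36.4 and 41.5 FPKM, and GARS, glycine synthetase, had 61.3, 75.4, 60.2 and 78.8 FPKM. For CARS and GARS both libraries with Dox were above both libraries without it, and the changes in the vector cells (0.28 and 0.30) were near those in the MYC-inducible cells (0.19 and 0.39).

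NARS, AARS and SARS, which charge asparagine, alanine and serine, had a small excess over the vector change. NARS had 60.4, 62.8, 62.4 and 69.4 FPKM and AARS had 34.9, 36.5, 36.6 and 41.7 FPKM. SARS, the most abundant synthetase mRNA here, had 126, 131, 123 and 145 FPKM. The MYC-inducible changes were 0.15, 0.19 and 0.23 in that order, and in each gene the MYC-inducible library with Dox was the highest. The other 7 cytosolic enzymes (FARSA, QARS, RARS, MARS, TARS, HARS and DARS) had changes between 0.18 (DARS) and 0.47 (FARSA).

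The 8 enzymes of the multisynthetase complex were all higher with Dox in the MYC-inducible cells, with a median of 0.48, and 7 of 8 were up by at least 25% (46.8% of all genes were higher and 16.9% up by 25%). Of the 12 free cytosolic enzymes, 11 were higher and 6 were up by at least 25%, with a median of 0.32. The ranges overlapped, from 0.18 to 0.65 in the complex and from -0.18 to 0.77 outside it, and the difference between the sets was not tested. The vector cells medians were 0.03 and 0.08. By catalytic fold, the 9 class I cytosolic enzymes had a median of 0.46 and the 10 class II enzymes 0.32, with EPRS, which carries both classes, left out, and among the mitochondrial enzymes the medians were 0.38 and 0.28.

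The scaffold proteins were higher with the enzymes they hold. AIMP2 had 25.5, 26.0, 27.6 and 43.0 FPKM, EEF1E1 had 54.7, 55.5, 50.1 and 68.95 FPKM, and AIMP1 had 20.7, 21.1, 20.9 and 26.4 FPKM. Their changes were 0.64, 0.46 and 0.34 in the MYC-inducible cells and between 0.02 and 0.03 in the vector cells, and only AIMP2 of the 3 rose 1.5-fold. AIMP2 shares 532 exon bases on the opposite strand with EIF2AK1 (24.2, 23.6, 24.5 and 29.1 FPKM), and without strand information reads from the shared stretch cannot be assigned to 1 gene. EEF1E1 shares 393 exon bases with the read-through gene EEF1E1-BLOC1S5, which had 1.28, 0.699, 2.80 and 4.92e-05 FPKM, and how fragments were divided between these genes was not tested.

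The mitochondrial enzymes held the largest changes of all 40 members, in MARS2 and YARS2. MARS2, mitochondrial methionine synthetase, is a single-exon gene on chromosome 2 of GRCh37 from 198570093 to 198573119, and it carries the E-box printed above. It had 5.31, 5.05, 5.70 and 10.9 FPKM, a change of 0.93 with a counting error of 0.0669, and -0.07 in the vector cells. YARS2, mitochondrial tyrosine synthetase (chromosome 12, 32880424 to 32908831), had 12.3, 12.9, 12.5 and 22.6 FPKM, with changes of 0.85 (counting error 0.0546) and 0.07. In both genes the other 3 libraries were close together and the MYC-inducible library with Dox stood apart. YARS2 shares 388 exon bases on the opposite strand with an unnamed long noncoding RNA.

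LARS2 and NARS2 came next in the excess of the MYC-inducible change over the vector change, though not in the change itself. LARS2, for leucine, had 6.31, 6.21, 5.56 and 7.29 FPKM, and NARS2, for asparagine, had 26.1, 24.4, 27.1 and 32.5 FPKM. Their changes were 0.38 and 0.26, and in the vector cells -0.02 and -0.09. The LARS2 value without Dox was lower in the MYC-inducible cells than in the vector cells, which adds to its change.

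AARS2, CARS2, PARS2 and HARS2 had the smallest excess over the vector cells. AARS2, for alanine, had 9.28, 9.01, 10.6 and 9.39 FPKM, so its change of -0.17 came with a high untreated value in the MYC-inducible cells, and the value with Dox lay inside the range of the other 3. CARS2, for cysteine, had 38.3, 37.9, 36.4 and 35.1 FPKM, a change of -0.05, within its counting interval. PARS2, for proline and the lowest member, had 3.37, 3.97, 4.32 and 5.34 FPKM. PARS2 was higher with Dox in both lines (0.30 and 0.23) and also differed between the untreated populations, by 0.35. Another 8 mitochondrial enzymes (WARS2, IARS2, EARS2, TARS2, VARS2, SARS2, FARS2 and RARS2) had changes between 0.04 (RARS2) and 0.44 (WARS2), none of them 1.5-fold.

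Cytosolic and mitochondrial enzymes differed in level much more than in their change. The median level was 47.3, 49.2, 45.9 and 57.2 FPKM over the cytosolic enzymes and 12.4, 12.9, 13.95 and 15.9 FPKM over the mitochondrial enzymes, a ratio of 3.81, 3.82, 3.29 and 3.59. In the vector cells without Dox the cytosolic enzymes spanned 19.5 to 126 FPKM and the mitochondrial enzymes 3.37 to 41.0 FPKM, so the ranges overlapped. The cytosolic minus mitochondrial median change was 0.06 in the MYC-inducible cells and 0.04 in the vector cells, which is small beside the spread among members, and it was not tested. GARS and KARS, which supply both compartments, are counted as cytosolic here. Their changes in the MYC-inducible cells, 0.39 and 0.65, were above the cytosolic median, and the comparison without them was not made.

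When enzymes for the same amino acid were set side by side, the direction differed between pairs. Among 18 pairs covering 17 amino acids, the cytosolic change was higher in 11 (10 of them beyond the 95% counting interval) and the mitochondrial change in 7 (5 of them), with a median difference of 0.13. EPRS and FARS2 each enter more than 1 pair, so the pairs are not independent. In every pair with EPRS or FARS2 the cytosolic change was the higher. The cytosolic enzyme led most for valine (VARS over VARS2 by 0.58), alanine (0.35) and arginine (0.30). Without Dox, AARS2 and RARS2 were higher in the MYC-inducible than in the vector cells, by 0.19 and 0.17. This adds to the leads for alanine and arginine. Against the vector cells with Dox, RARS2 (0.32) was above RARS (0.24). VARS2 shares 3575 exon bases on the same strand with an unnamed long noncoding RNA, and how fragments were divided was not tested. The mitochondrial enzyme led for tryptophan (WARS minus WARS2 -0.61), methionine (MARS minus MARS2 -0.46) and tyrosine (-0.22), so the ratio of MARS to MARS2 was 5.13, 6.09, 5.03 and 3.62 in the 4 libraries. In level the cytosolic enzyme was the higher in all 4 libraries in 16 of 18 pairs. Isoleucine was reversed, with IARS at 0.690, 0.702, 0.743 and 0.830 times IARS2, and CARS crossed CARS2, at 0.966, 1.19, 0.998 and 1.18 times its level.

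Some synthetase genes begin head to head with another gene, so the values of their neighbours are given beside them. HARS (minus strand, chromosome 5 of GRCh37, 140052620 to 140071122) and HARS2 (plus strand, 140071015 to 140078890) encode the cytosolic and mitochondrial histidine synthetases, and their start sites lie 85 bases apart. HARS had 46.6, 49.6, 43.2 and 54.3 FPKM and HARS2 23.4, 24.9, 22.6 and 26.0 FPKM. The changes were 0.33 and 0.21 in the MYC-inducible cells and 0.09 in both genes in the vector cells. Without Dox, the MYC-inducible minus vector difference of HARS was -0.11, which adds to its change. Against the vector cells with Dox, HARS had 0.13 and HARS2 0.06. RARS2 and its partner ORC3, a replication factor, were nearly equal, at 0.04 and 0.05 (-0.11 and -0.10 in the vector cells).

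KARS and YARS parted from their partners. TERF2IP, a telomere protein whose start lies 108 bases from that of KARS, had 32.1, 32.1, 32.0 and 28.1 FPKM, a change of -0.19 where KARS rose. S100PBP, which starts 295 bases from YARS, had 3.82, 3.81, 4.05 and 3.70 FPKM, a change of -0.13 where YARS rose. MRPS12, a mitochondrial ribosomal protein that starts 181 bases from SARS2, had 166, 183, 160.0 and 263 FPKM and rose by 0.72, more than SARS2 at 0.41. Over the 7 measured partners that are not members, 5 were higher (46.8% of all genes) and 1 rose (5.9% of all genes). Their median was 0.20, beside 0.41 over the 7 members opposite them and -0.03 over all genes. These small counts were not tested.

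Other genes of the tRNA pathway are described from lists chosen by function. Of 30 measured genes of cytosolic tRNA modification, 11 rose and none fell in the MYC-inducible cells (5.9% of all genes rose and 8.85% fell, for this and the following lists), with a median of 0.45 (0.09 in the vector cells), and the highest were PUS7 (1.03), PUS1 (0.98), both pseudouridine synthases, and YRDC (0.81). The lowest were ADAT1 (-0.15) and ADAT3 (-0.10), and 28 of the 30 were higher. Of 25 genes of tRNA transcription, processing and export, 4 rose, with a median of 0.24, led by RPP40 (1.04), an RNase P subunit, and ELAC2 (0.94), which trims the 3′ end of tRNA. ELAC1 (-0.24) and BRF2 (-0.23) were lowest, and 23 of the 25 were higher. Among 16 mitochondrial translation factors 4 rose and the median was 0.35, near that of the mitochondrial synthetases, and TUFM, the elongation factor that takes charged mitochondrial tRNA, had 0.76. MTIF3 was lowest, at -0.16, and 15 of the 16 were higher. Of 7 cytosolic elongation factors none rose, with a median of 0.33 and values of 0.56 for EIF5A, which aids peptide bond formation, and 0.06 for EEF1A1, which carries charged tRNA to the ribosome. The 8 synthetase-like and tRNA charging partners had a median of 0.23 and none rose.

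The ATF4-response genes outside the synthetases changed in both lines. Of 20 measured, 6 rose and 1 fell in the MYC-inducible cells (median 0.34) and 7 rose in the vector cells (median 0.21), where 0.709% of all genes rose. Gene by gene, 12 of the 20 had the lower change in the MYC-inducible cells, with a median difference of -0.14. Over all genes, 6074 of 11147 had the lower change there, with a median difference of -0.04. NUPR1 and TRIB3, stress-response genes named after their values were seen, had 0.36 and 0.61 in the MYC-inducible cells and 1.24 and 1.03 in the vector cells. ASNS, asparagine synthetase, had 8.88, 13.4, 6.72 and 21.1 FPKM, and its changes were 1.64 and 0.59. VLDLR was lowest, at -0.81 in the MYC-inducible cells. Among the members, the largest vector-line changes were in GARS (0.30), CARS (0.28), SARS2 (0.25), PARS2 (0.23) and VARS (0.21), and MARS had 0.18. MARS shares 60 exon bases on the opposite strand with the ATF4-response gene DDIT3, which had 31.7, 59.0, 32.3 and 30.3 FPKM, and the share of its reads in the MARS value was not tested.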

How the data were processed

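RNA-Seq was carried out on 4 SK-MEL-28 libraries, 1 per condition, grouped by the deposited labels. Per the deposited table, the values are FPKM for each symbol, made by the authors, and the submitters' processing notes name TopHat2 2.0.14, Cufflinks and the builds hg19 and GRCh37. The annotation and strand setting are not given in the sources used here. The table has 27032 rows, from which 1 unnamed row was removed. Repeated rows of 609 symbols (2 of them members, VARS with 7 rows and VARS2 with 6) were added together, giving 25268 symbols. FPKM values are not counts and single libraries allow no test, so changes were differences of log2(FPKM + 0.1), which understates low genes, over the 11147 genes whose mean reached 1 FPKM. Depth was estimated from the smallest steps between low values in 138 genes, whose estimates had quartiles of 32800000 and 40800000 fragments, with GENCODE 44 transcript lengths on GRCh37.

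The members, gene lists and comparisons were chosen with earlier results of these data known. Values in all 4 libraries were given for the 6 cytosolic enzymes with the highest and the 6 with the lowest MYC-inducible minus vector change, for 4 and 4 mitochondrial enzymes, for the scaffold proteins, and for member pairs with a shared start region. From the related lists, the 3 highest and 3 lowest changes were eligible to be named. Alternatives were other pseudocounts, filters, scalings, references, thresholds and the mean. Promoters came from RefSeq GRCh38.p14 and no coordinates were converted between builds. Protein identity was not analysed here, and the values of 1 member, which counts in the totals and medians, are not reported here. The calculations were tested on simulated data. Calculations ran in Python 3.11.15 with pandas 2.3.3 and numpy 2.4.6, and plots were drawn with matplotlib 3.10.9.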

Additional observations from a re-analysis of the deposited data

Results flagged for a closer look

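WARS and NARS2 had changes of opposite sign in the vector cells and the MYC-inducible cells, each beyond its approximate 95% counting interval. Subtracting the vector change from the MYC-inducible change gave -0.33 for WARS, which was lower with Dox in the MYC-inducible cells and higher in the vector cells. It was 0.36 for NARS2, which was higher with Dox in the MYC-inducible cells and lower in the vector cells. With 1 library per condition, this difference was not tested.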

How the results depend on the processing

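No paired analysis was possible because only 1 library exists per group. Of the values for single members, 568 stayed within their counting error or direction under the alternatives, 28 moved and 2 reversed, and of the summary values 146 stayed, 6 moved and 2 reversed. The filters on low values only set which genes are kept and cannot change the value of a single member. Part of the 568 was therefore fixed in advance. Lifting the filter left every member in place, so it could not change the summary values either. Against the vector cells with Dox, CARS had -0.12 and AARS2 0.059 in place of 0.19 and -0.17, the scaffold median was 0.32 and 4 members were 1.5-fold higher (6.5% of all genes), and the cause was not tested. Rescaled to the same sum 5 members rose, and with the median ratio 8. With a threshold of 25%, 24 of 40 members rose (16.9% of all genes) and with a 2-fold threshold 0. The shares of all genes under these 2 scalings and at 2-fold were not calculated, so these counts have no background beside them. With upper quartile scaling the mitochondrial median in the vector cells was -0.0011. Leaving out the 12 members that share exon bases with another gene, an alternative chosen after seeing the data, left 28 members and 9 pairs, and gave a scaffold median of 0.34, a cytosolic minus mitochondrial vector change of -0.023 and 4 of 9 pairs with the higher cytosolic change in the vector cells (12 of 18 with all members). In the MYC-inducible cells the same alternative gave 8 of 9 pairs (11 of 18) and a cytosolic minus mitochondrial change of 0.09 (0.06). Over the alternatives the MYC-inducible median ranged from 0.30 to 0.37 for all members, 0.31 to 0.43 for the cytosolic and 0.23 to 0.35 for the mitochondrial enzymes. PARS2 had no value under the 5 FPKM filter. With 1 library per condition, counting error is the only error available, and it leaves out differences between cultures.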
